A study of Mus musculus with 30 samples.

Results

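The 9 genes described here encode transcription factors known from the apical ectodermal ridge of the mouse limb bud: *Sp6*, *Sp8* and *Sp9* of the SP zinc finger family, *Dlx1*, *Dlx2*, *Dlx3*, *Dlx5* and *Dlx6* of the distal-less homeodomain family, and *Trp63*, which encodes the p53-related factor p63. They were picked by gene symbol from the 50833 genes of the count table, by names alone but with earlier results of these data known. Pregnant wild-type Swiss Albino mice were injected once into the peritoneum at E10.5 with C59 or, as control, with DMSO. By the methods, the C59 stock in DMSO was diluted in a vehicle with methylcellulose and Tween-20. The control was DMSO in PBS, so that drug and carrier cannot be told apart. C59 inhibits porcupine, an acyltransferase that WNT ligands need for secretion. Forelimb buds were taken 1, 6, 12, 18 and 24 h later, which gave 10 groups of 3 libraries, each made from the forelimb buds of 1 embryo. No gene was deleted in any group. The drug reached the mother and the whole embryo, and the stage of the C59 embryos was judged by the time elapsed and the size of the bud.

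The apical ridge is a strip of thickened ectoderm along the rim of the limb bud that sends FGF signals to the mesenchyme beneath it. WNT signalling within the ectoderm is needed to form and keep the ridge, and SP and DLX factors act downstream of it in the same cells. The SP factors Sp6 and Sp8 are jointly needed for ridge formation. p63 keeps the identity of stratifying epithelia, and mice without it have truncated limbs. Several DLX genes are also active in limb mesenchyme, so that a whole bud holds more than 1 source of their transcripts. In bulk libraries fewer cells of a type and less RNA per cell cannot be told apart.

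Promoter sequence was at hand for 4 of the 9 members (*Sp8*, *Sp9*, *Dlx1* and *Dlx2*; RefSeq, build GRCm38.p6). The 250 bases before the start site of *Sp8* and *Sp9* are shown, since these SP genes differed in the size of their response at the late times below. They lie at chr12:118846079-118846328 for *Sp8* and chr2:73271676-73271925 for *Sp9*, both on the plus strand. Capitals mark matches to either of 2 motifs, the TCF/LEF core CTTTGA and the GC box GGGCGG, on either strand.
Sp8: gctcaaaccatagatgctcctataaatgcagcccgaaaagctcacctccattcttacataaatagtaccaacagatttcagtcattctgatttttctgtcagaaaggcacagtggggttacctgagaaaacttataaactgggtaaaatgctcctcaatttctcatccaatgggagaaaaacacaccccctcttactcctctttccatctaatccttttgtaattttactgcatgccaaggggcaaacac
Sp9: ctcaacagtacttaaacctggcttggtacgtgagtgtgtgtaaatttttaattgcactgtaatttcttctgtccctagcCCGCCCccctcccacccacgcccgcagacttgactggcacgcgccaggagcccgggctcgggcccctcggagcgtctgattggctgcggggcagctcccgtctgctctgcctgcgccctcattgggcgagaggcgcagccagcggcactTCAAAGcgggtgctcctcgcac
For *Sp8* 3 windows are listed and for *Sp9* 1, and the *Sp8* window shown is the one nearest the annotated gene start. This *Sp8* window held neither motif, and 40.8% of its bases were G or C. The other *Sp8* windows are not described here. The *Sp9* window held 1 GC box, read as CCGCCC, and 1 TCF/LEF core, read as TCAAAG and starting 22 bases before the start site. Of its bases 62.4% were G or C. Among 32536 distinct windows of the same 250-base length, 13.9% held the TCF/LEF core and 33% the GC box. Another motif, the homeodomain core TAATTA, was present in 4.84% of all windows and in none of the 4 member windows. These matches describe letters in a window and say nothing of binding.

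Library totals ranged from 18188636 to 38974885 counts, and protein-coding genes took 95.1% to 98.1% of them. *Axin2*, the usual readout of WNT/beta-catenin signalling, was lower with C59 by -1.97 ± 0.06 (log2, SE) at 6 h and -1.45 ± 0.06 at 12 h. It had already passed at 1 h, with a difference of -0.19 ± 0.04 (edgeR, adjusted p = 0.0282), when no member did. At 18 h and 24 h its values of -0.16 ± 0.09 and -0.08 ± 0.07 did not pass the test (edgeR, adjusted p = 0.333 and 0.507). In 5 groups 1 library stood apart from its replicates (DMSO 1 h, 6 h and 18 h replicate 1, C59 18 h replicate 3 and C59 24 h replicate 2). The pairs with it differed by 20.8 to 42.2 times the counting noise (chi-square per degree of freedom), against 3.31 to 11.7 for all other pairs. Apart from C59 18 h replicate 3 (95.1%), these libraries also had the highest protein-coding shares, 97.8% to 98.1%. The shares of all other libraries were 95.1% to 96.3%. The cause was not tested. Y-linked transcripts were present in 3 of 3 C59 libraries and listed at 0 in 3 of 3 DMSO libraries at 6 h. Embryo sex and treatment thus cannot be told apart at that time. At 1 h the summed Y-linked FPKM was 37, 38.2 and 21.25 in C59 and 7.66, 9.03 and 0.047 in DMSO, again without overlap. The imbalance therefore also holds at 1 h and enters each change of effect that uses 1 h or 6 h. The DMSO values of 7.66 and 9.03 lay between those of all other libraries, which were at most 0.417 or at least 18.8. Their origin was not tested. All 12 surface ectoderm markers were detected in every group, and their summed level is given beside the members it moves with.

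Read counts were usable for 8 of the 9 members. *Sp6* lies at chr11:97013394-97024734 (mm10, GENCODE M21) on the plus strand, and 86.7% of its 3841 exonic bases are shared with *Gm11532*, a non-coding transcript on the opposite strand. The count table gave it 0 to 13 counts per library with a median of 2, while its FPKM (reads scaled by transcript length and library size, the submitters' second table) ran from 1.70 to 5.05. Its CPM (counts scaled to library size) were thus 0.0333 times its FPKM, whereas this ratio was 1.60 to 5.68 for the other 8 members. *Gm11532* itself had 0 to 5 counts and an FPKM of 0 to 0.338. *Sp6* is therefore described from FPKM alone, by a limma test on log2(FPKM + 0.1). The submitters computed FPKM with an unstranded setting, under which reads of *Sp6* and *Gm11532* cannot be told apart by strand, and the strand setting of the counts is not given in the sources used here. The other SP genes are at chr12:118846329-118852576 (*Sp8*, plus strand) and chr2:73271925-73284706 (*Sp9*, plus). The DLX genes are at chr2:71528113-71533981 (*Dlx1*, plus) and chr2:71543408-71546754 (*Dlx2*, minus), at chr6:6877805-6882085 (*Dlx5*, minus) and chr6:6863334-6868568 (*Dlx6*, plus), and at chr11:95120119-95125296 (*Dlx3*, plus). *Trp63* spans chr16:25683763-25892102 (plus). All 9 are annotated as protein-coding. Smaller opposite-strand overlaps cover 6.21% of the exonic bases of *Dlx1* (*Dlx1as*), 5.35% of *Sp9* (*Cir1*) and 4.38% of *Dlx6* (*Dlx6os2*).

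On the FPKM scale, which allows levels of different genes to be set side by side, *Trp63* led at 1 h in DMSO buds with 6.71 ± 0.36 FPKM (mean ± SD, n = 3). *Sp6* (4.24 ± 0.71), *Dlx2* (3.98 ± 0.58), *Sp8* (3.32 ± 0.19), *Dlx5* (3.03 ± 0.46) and *Dlx3* (2.74 ± 0.33) followed, each overlapping its neighbour in this order. *Dlx1* (1.85 ± 0.47), *Dlx6* (0.889 ± 0.178) and *Sp9* (0.240 ± 0.042) stood below them without overlap. By 24 h the order in DMSO buds had changed, with *Dlx5* at the top (13.3 ± 1.0 FPKM) above *Trp63* (7.90 ± 0.29). *Sp9* (1.10 ± 0.24) was still last but overlapping *Dlx1* (1.39 ± 0.09).

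**Figure D1:**
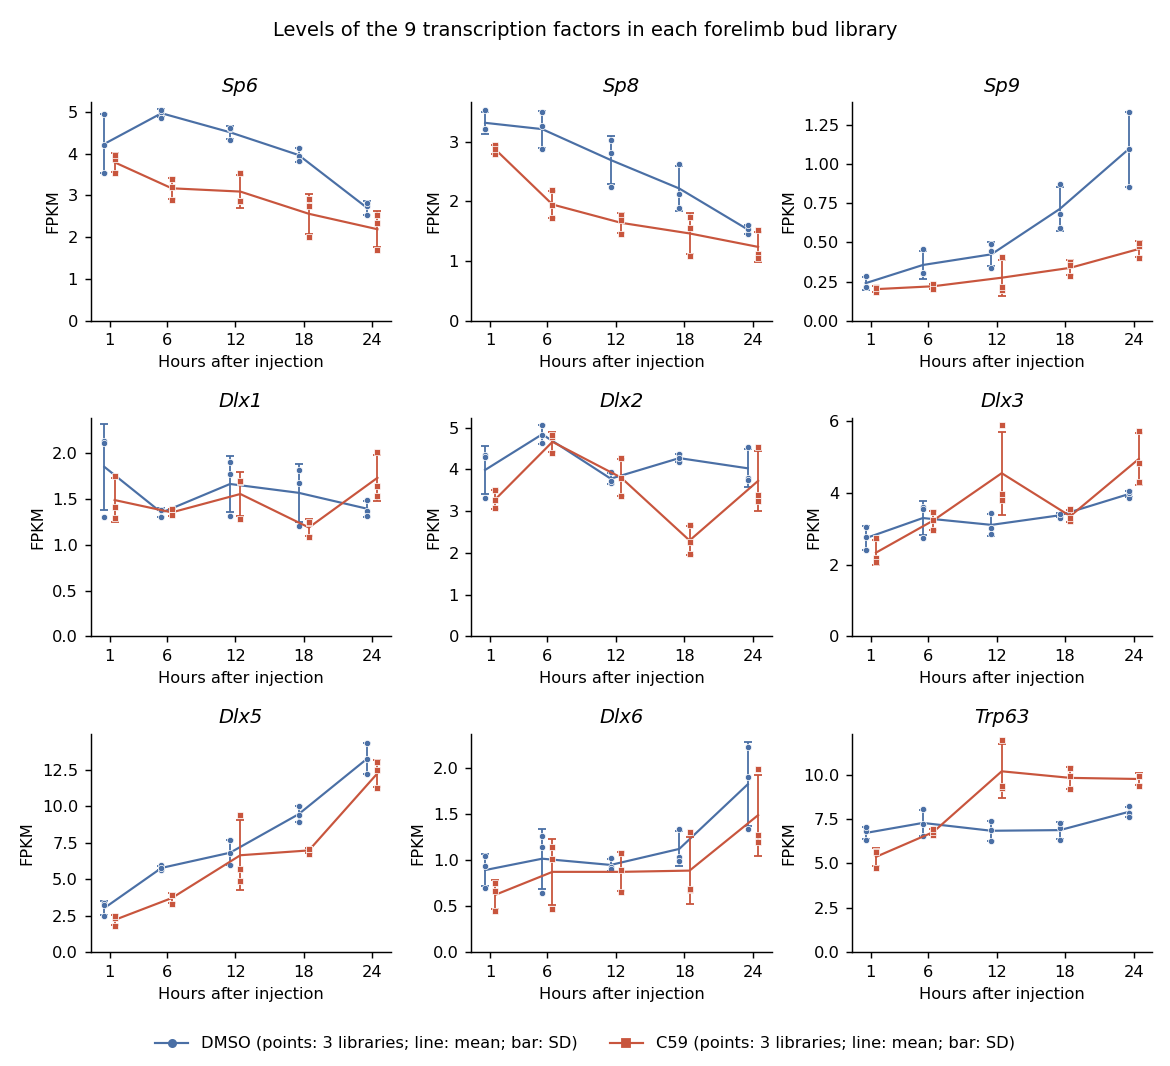
Level of each member in FPKM (y axis, linear, from 0) against hours after injection, for DMSO (circles) and C59 (squares); each point is 1 library, lines join means and bars are SD (n = 3). *Dlx5* and *Sp9* climbed over the DMSO series while *Sp8* and *Sp6* declined. *Trp63* is the member whose C59 libraries lay above all DMSO libraries from 12 h on.

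The change with normal age was taken from DMSO buds at 24 h against 1 h. Of the 8 members tested on counts, 5 rose and 1 fell, beside 59.3% of 13580 genes that passed the same test (adjusted p below 0.05 over all genes, edgeR quasi-likelihood). *Dlx5*, a homeodomain factor of ridge and mesenchyme, rose from 6.25, 4.999 and 6.15 to 22.4, 23.8 and 25.9 CPM (log2 difference 2.05 ± 0.11 SE, adjusted p = 9.6e-10). *Sp9*, whose transcripts mark the ridge and respond to FGF, rose from 1.25, 1.81 and 1.28 to 5.04, 6.36 and 7.77 CPM (2.16 ± 0.21, adjusted p = 9.1e-07). Neither gene's groups overlapped, and both changes were beyond 2-fold, which 12% of all genes were. *Sp8*, which is needed for ridge formation and outgrowth, moved the other way, from 17.1, 18.5 and 17.1 to 8.39, 9.02 and 7.96 CPM (-1.05 ± 0.10, adjusted p = 3.9e-07). Its relative *Sp6* fell as well, by 0.62 ± 0.12 on the log2(FPKM + 0.1) scale (limma, adjusted p = 0.00214, beside 53.3% of 13737 genes on this scale). *Dlx6*, *Dlx3* and *Trp63* rose by less, with log2 differences of 0.96 ± 0.25, 0.48 ± 0.11 and 0.17 ± 0.06. The call on *Trp63* was lost without any 1 of DMSO 1 h replicate 2, DMSO 24 h replicate 1 and DMSO 24 h replicate 2. *Dlx1* (-0.29 ± 0.18, and -0.50 with an adjusted p of 0.012 without DMSO 1 h replicate 3) and *Dlx2* (-0.05 ± 0.12) did not pass. In C59 buds at 24 h against 1 h, 5 members rose and 1 fell, beside 54.1% of 13510 genes. The log2 differences were 2.31 ± 0.14 for *Dlx5*, 1.97 ± 0.33 for *Dlx6*, 1.04 ± 0.25 for *Sp9*, 0.98 ± 0.14 for *Dlx3*, 0.72 ± 0.08 for *Trp63* and -1.30 ± 0.12 for *Sp8*. On the log2(FPKM + 0.1) scale the *Dlx6* rise was 1.13 ± 0.23 (limma, adjusted p = 0.00229), smaller than from counts. *Sp6* fell by 0.78 ± 0.15 on its FPKM scale (limma, adjusted p = 0.00131, beside 48.5% of 13801 genes).

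C59 against DMSO was compared at each time on its own 6 libraries. At 1 h none of the 8 tested members passed (edgeR, adjusted p below 0.05), beside 2.75% of 13076 genes. Still, 3 had an unadjusted p below 0.05 (*Trp63*, *Dlx6* and *Dlx5*, all lower with C59), and DESeq2 called none either. At 6 h 2 members were lower and none higher, beside 19.6% of 13100 genes. At 12 h 2 were higher and 1 lower, beside 47.5% of 13324 genes, the time of the broadest response over all genes. At 18 h 1 was higher and 3 lower, beside 7.08% of 13413 genes, and at 24 h 1 was higher and 1 lower, beside 6.44% of 13675 genes. The called members, 2, 3, 4 and 2 of 8 from 6 h to 24 h, were thus close to the share over all genes at 6 h, below it at 12 h and above it at 18 h and 24 h. The median log2 difference of the 8 members was -0.24, -0.24, -0.09, -0.50 and -0.13 at the 5 times in order, against 0.00 to 0.02 over all genes. The study's own rule asks in addition for a log2 difference beyond 1, which only *Sp9* met, at 18 h and 24 h, beside 1.29% and 0.819% of all genes.

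**Figure D2:**
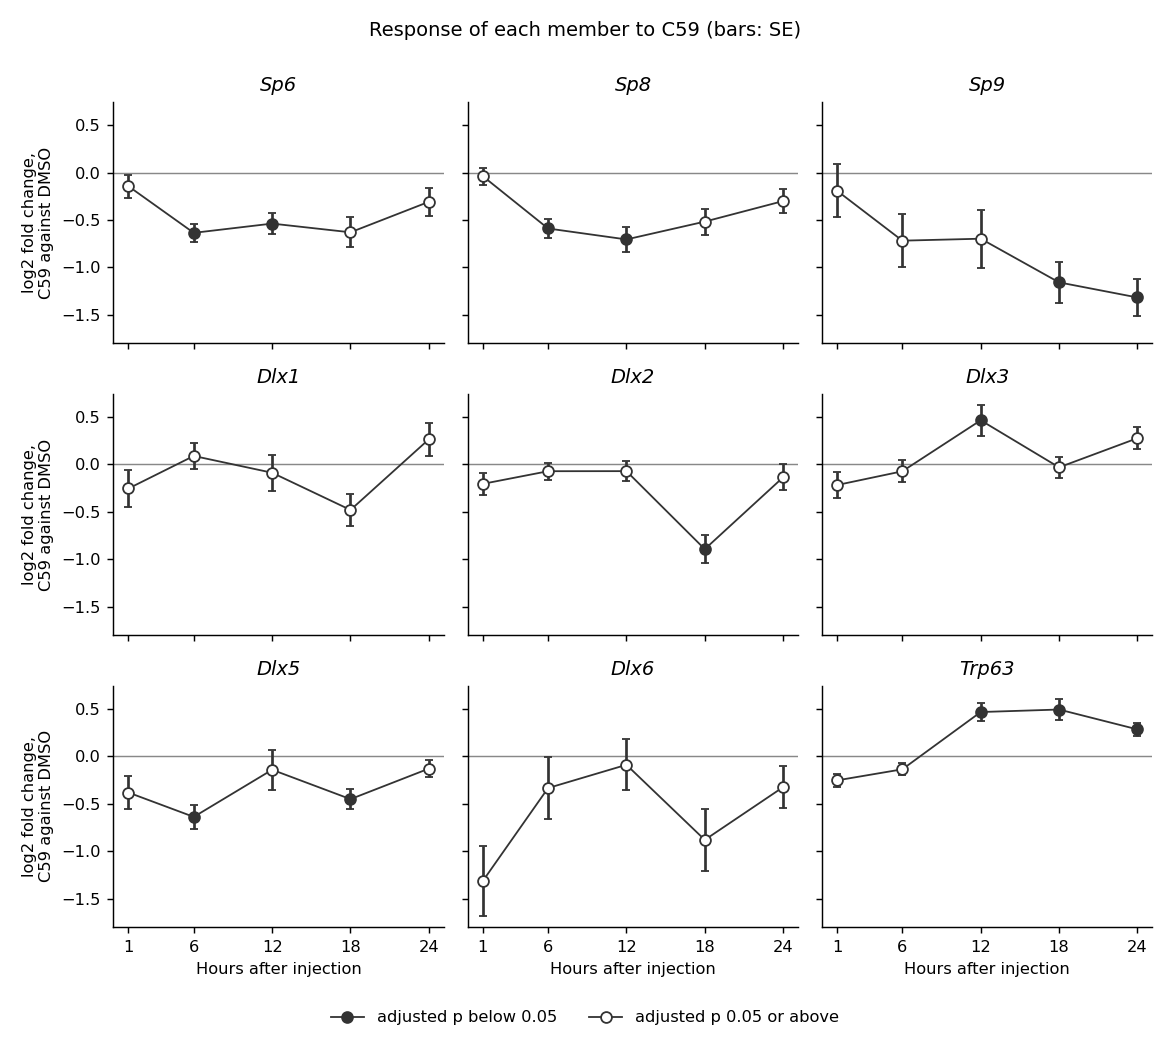
Log2 fold change of each member, C59 against DMSO (y axis), against hours after injection; bars are SE, and filled points have an adjusted p below 0.05 over all genes. *Sp6* is from FPKM (limma) and all others are from counts (edgeR). *Sp8* and *Sp6* were below 0 throughout, *Sp9* reached -1.32 at 24 h, *Dlx2* dipped at 18 h alone, and *Trp63* lay above 0 from 12 h on.

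Among the SP factors, *Sp8* and *Sp6* passed their tests at 6 h and 12 h, and *Sp9* at 18 h and 24 h. These times do not by themselves show a difference in timing, since no change of the C59 effect between consecutive times passed for *Sp9*. With all 30 libraries in the fit, *Sp9* also passed at 12 h (edgeR, adjusted p = 0.0296) and *Sp8* at 18 h (adjusted p = 0.00132). In 3 DMSO libraries at 6 h *Sp8* stood at 17.1, 17.4 and 16.6 CPM, and in 3 C59 libraries at 12.6, 9.86 and 11.6 CPM. At 12 h the values were 14.0, 13.5 and 18.2 CPM in DMSO and 8.44, 9.67 and 9.84 CPM in C59. The groups did not overlap at either time. The log2 differences were -0.59 ± 0.10 (adjusted p = 0.00127, edgeR) and -0.70 ± 0.14 (adjusted p = 0.00169), and both calls held without any 1 library. At 18 h the C59 libraries (8.51, 8.14 and 6.61 CPM) were again all below the DMSO libraries (11.6, 10.9 and 11.2 CPM). The difference of -0.52 ± 0.14 fell just short of the threshold (edgeR, adjusted p = 0.0544), while DESeq2 gave an adjusted p of 0.0225 and edgeR one of 0.0395 without C59 replicate 3. At 24 h, when the DMSO level had itself dropped to 8.46 ± 0.53 CPM, the C59 level was 6.82 ± 0.73 CPM (-0.30 ± 0.13, adjusted p = 0.194). The C59 effect on *Sp8* changed between 1 h and 6 h by -0.55 ± 0.13 (adjusted p = 0.011, edgeR interaction), where 13% of 13397 genes passed.

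*Sp6*, which acts with *Sp8* in the limb ectoderm, stood at 5.004, 5.05 and 4.87 FPKM in DMSO buds at 6 h and at 2.90, 3.21 and 3.40 FPKM in C59 buds. At 12 h it was at 4.58, 4.34 and 4.62 FPKM against 2.88, 2.86 and 3.54 FPKM. The C59 libraries were below all DMSO libraries at both times, with differences of -0.64 ± 0.09 (limma, adjusted p = 0.00197, beside 11.2% of 13400 genes on this scale) and -0.54 ± 0.11 (adjusted p = 0.00384, beside 43.9% of 13721 genes). Both calls held without any 1 library. At 18 h the difference was -0.63 ± 0.16 (limma, adjusted p = 0.0531, and 0.0165 without C59 replicate 3) and at 24 h -0.31 ± 0.15 (adjusted p = 0.281), with overlapping groups at 24 h. The difference between the *Sp6* and *Sp8* responses within libraries, on the FPKM scale, was 0.11 ± 0.12 over 6 h and 12 h and -0.02 ± 0.19 over 18 h and 24 h (exact permutation, adjusted p = 0.549 and 0.935).

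*Sp9*, a ridge gene with the lowest level of the 9 members, had a lower mean with C59 at every time. It stood at 1.74, 1.82 and 2.89 CPM in DMSO and 1.29, 1.37 and 1.22 CPM in C59 at 6 h, a difference of -0.72 ± 0.28 that did not pass (edgeR, adjusted p = 0.0842). At 12 h the groups overlapped through C59 replicate 3 (2.25 CPM against 1.14 and 1.22 CPM). The difference of -0.70 ± 0.31 (edgeR, adjusted p = 0.0831) became -1.07 and passed (adjusted p = 0.017) without that library. At 18 h DMSO buds had 4.98, 4.44 and 3.51 CPM and C59 buds 2.15, 1.60 and 1.97 CPM. At 24 h the values were 5.04, 6.36 and 7.77 against 2.71, 2.21 and 2.81 CPM. The groups did not overlap at 18 h or 24 h. *Sp9* was 2.23-fold lower at 18 h (log2 -1.16 ± 0.22, adjusted p = 0.0161) and 2.49-fold lower at 24 h (-1.32 ± 0.20, adjusted p = 0.00225). The call at 24 h held without any 1 library. That at 18 h was lost without DMSO replicate 1 (adjusted p = 0.0686), DMSO replicate 2 (0.0656) or C59 replicate 2 (0.0645), with log2 differences of -1.05, -1.13 and -1.05. C59 buds still gained *Sp9* between 1 h and 24 h, from 1.25 ± 0.12 to 2.58 ± 0.32 CPM, while DMSO buds went from 1.45 ± 0.32 to 6.39 ± 1.36 CPM.

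Of 8 further SP, DLX and p53-family genes, 7 or 8 were tested at each time (edgeR). At 6 h 1 passed upward and 1 downward, and at 12 h 2 upward and 2 downward, beside 19.6% and 47.5% of all genes. None passed at 1 h, 18 h and 24 h, when 2.75%, 7.08% and 6.44% of all genes did. At those times 2, 2 and 1 had an unadjusted p below 0.05 (edgeR). *Sp5*, a direct WNT/beta-catenin target, was lowest at 6 h (-4.50 ± 0.29, adjusted p = 2.7e-07) and at 12 h (-2.18 ± 0.31), and *Trp73*, the paralogue of *Trp63*, was highest at both times (0.87 ± 0.19, adjusted p = 0.00627, and 0.73 ± 0.17, adjusted p = 0.00606).

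*Dlx5* and *Dlx6* sit side by side on chromosome 6 and are jointly required for the ridge and for digit formation. At 6 h *Dlx5* stood at 10.7, 11.6 and 10.9 CPM in DMSO and 7.73, 7.50 and 6.13 CPM in C59 (-0.64 ± 0.12, adjusted p = 0.00252, edgeR), and the groups did not overlap. At 12 h the C59 libraries spread over 16.8, 10.3 and 8.83 CPM on both sides of the DMSO libraries (11.4, 15.1 and 12.8 CPM). The difference of -0.14 ± 0.21 did not pass. Here single libraries moved the outcome both ways. Without C59 replicate 1 the difference was -0.44 (edgeR, adjusted p = 0.0331), and without C59 replicate 3 it was 0.045 (adjusted p = 0.868). At 18 h DMSO libraries had 18.0, 17.0 and 18.1 CPM and C59 libraries 12.8, 13.0 and 12.5 CPM. The groups were narrow and separate (-0.45 ± 0.10, edgeR adjusted p = 0.0339). That call was nevertheless lost, with little change in size (-0.43 to -0.48), without any 1 of 5 libraries, C59 replicate 3 being the exception. By 24 h *Dlx5* had 24.0 ± 1.8 CPM in DMSO and 22.0 ± 2.0 CPM in C59 (-0.13 ± 0.09, adjusted p = 0.439).

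*Dlx6*, at 8 to 84 counts per library, was too thinly covered for a firm statement. It stood at 0.982, 1.47 and 2.03 CPM in DMSO and 0.572, 0.822 and 0.421 CPM in C59 at 1 h (-1.31 ± 0.37, adjusted p = 0.0743). At 18 h the values were 2.92, 2.25 and 1.94 CPM against 1.92, 0.949 and 0.911 CPM (-0.88 ± 0.33, adjusted p = 0.142, and -1.32 with an adjusted p of 0.0476 without C59 replicate 1). In CPM the groups were separate at both times without passing the edgeR test, and they overlapped at 6 h, 12 h and 24 h. In FPKM they overlapped at every time. At 1 h *Dlx6* had 0.695, 0.929 and 1.04 FPKM in DMSO and 0.751, 0.666 and 0.447 FPKM in C59, and at 18 h 1.34, 1.03 and 0.985 FPKM against 1.30, 0.67 and 0.679 FPKM. The log2(FPKM + 0.1) differences were only -0.46 ± 0.22 and -0.36 ± 0.26 (limma, adjusted p = 0.343 and 0.447), so that the size seen in counts was not shared by the second table. The ratio of *Dlx6* to *Dlx5* differed between treatments by 0.19 ± 0.22 (log2) over 6 h and 12 h and by -0.36 ± 0.22 over 18 h and 24 h, neither of which passed (exact permutation, adjusted p = 0.555 and 0.223). From FPKM the late value was -0.07 (adjusted p = 0.9).

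*Dlx1* and *Dlx2*, the convergent pair on chromosome 2, were close to the DMSO level until 12 h. *Dlx2* then stood at 13.1, 13.5 and 13.8 CPM in DMSO at 18 h and at 8.46, 7.04 and 5.99 CPM in C59 (-0.89 ± 0.15, adjusted p = 0.00997, edgeR). The lowest DMSO library was above the highest C59 library by more than the spread within either group. At 24 h C59 libraries had 9.83, 13.6 and 10.6 CPM and overlapped the DMSO libraries at 11.8, 14.3 and 11.5 CPM (-0.14 ± 0.14, adjusted p = 0.607). The dip was tested as a change of the C59 effect, which moved by -0.82 ± 0.18 between 12 h and 18 h (edgeR, adjusted p = 0.0106, beside 8.49% of 13694 genes). Between 18 h and 24 h it moved back by 0.75 ± 0.21 (adjusted p = 0.0457, beside 6.96% of 13794 genes). Without DMSO 18 h replicate 3 the 18 h difference of -0.87 no longer passed (adjusted p = 0.0606). The return at 24 h was lost without any 1 of 8 of the 12 libraries (0.60 to 0.80, adjusted p up to 0.127). The exceptions were C59 18 h replicates 1 and 3, DMSO 24 h replicate 2 and C59 24 h replicate 1. *Dlx1* showed no difference that passed at any time. Its largest was -0.48 ± 0.17 at 18 h (6.81, 5.03 and 6.05 against 4.30, 3.95 and 4.31 CPM, adjusted p = 0.129), where the groups did not overlap.

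*Dlx3*, a homeodomain factor of surface epithelium, and *Trp63* were the members that were higher with C59. At 12 h *Dlx3* stood at 10.48, 9.96 and 11.9 CPM in DMSO and 12.9, 12.6 and 19.2 CPM in C59 (0.47 ± 0.16, adjusted p = 0.038, edgeR). The size of that difference rests in part on C59 replicate 3, without which it was 0.25 (adjusted p = 0.127). The call was also lost without DMSO replicate 1 (0.44, adjusted p = 0.105) or DMSO replicate 2 (0.41, adjusted p = 0.101). At 18 h the *Dlx3* levels of 11.4 ± 0.3 and 11.0 ± 0.4 CPM were within their spread of each other (-0.03 ± 0.11, edgeR adjusted p = 0.897). At 24 h they were 13.3 ± 0.6 and 16.2 ± 2.6 CPM (0.28 ± 0.11, adjusted p = 0.174).

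*Trp63*, the marker of basal epithelium, was not higher at first. At 1 h it stood at 38.6, 34.8 and 37.4 CPM in DMSO and 32.9, 31.8 and 28.1 CPM in C59 (-0.25 ± 0.07, adjusted p = 0.0751, edgeR). At 12 h it was at 36.5, 39.1 and 40.0 CPM in DMSO and 48.4, 49.2 and 62.2 CPM in C59 (0.47 ± 0.09, adjusted p = 0.00213). At 18 h the libraries had 33.3, 38.7 and 40.4 against 54.6, 53.3 and 48.4 CPM (0.49 ± 0.11, adjusted p = 0.0277). C59 libraries were above all DMSO libraries at both times and again at 24 h, when they had 49.1, 50.3 and 52.2 CPM against 43.0, 41.6 and 40.4 CPM (0.28 ± 0.07, adjusted p = 0.0266). The C59 effect changed by 0.60 ± 0.12 from 6 h to 12 h (adjusted p = 0.00249, beside 18.1% of 13565 genes). The 12 h call held without any 1 library. Each of the later calls was lost without any 1 of 5 of the 6 libraries, with log2 differences between 0.42 and 0.55 at 18 h and between 0.26 and 0.31 at 24 h. The exceptions were C59 replicate 3 at 18 h and C59 replicate 1 at 24 h. The limma test on log2(FPKM + 0.1) put the 24 h difference just past the other side of the threshold (0.30, adjusted p = 0.0519).

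Markers of the surface ectoderm moved with *Trp63*. Of 12 such genes, 1 was higher and 2 were lower with C59 at 6 h (median log2 difference 0.00). At 12 h 8 were higher and none lower (0.39), followed by 7 at 18 h (0.44) and 3 at 24 h (0.20), again with none lower. Over all genes 19.6%, 47.5%, 7.08% and 6.44% passed at these times in order. *Krt5*, the keratin of basal cells, was the highest at 12 h (0.79 ± 0.10) and *Krt15* at 18 h and 24 h (0.82 ± 0.13 and 0.88 ± 0.11). The 12 markers summed to 333.1 to 364 CPM in DMSO and 436 to 607 CPM in C59 at 12 h. The highest was C59 replicate 3, the library that also had the most *Trp63* and *Dlx3*. Per 100 CPM of the summed markers, *Trp63* was lower in every C59 library than in every DMSO library at the early times, with 11.9 ± 0.7 CPM in DMSO and 9.76 ± 0.89 in C59 at 1 h, and 11.9 ± 1.0 and 10.3 ± 0.4 at 6 h. It stood at 10.9 ± 0.2 and 10.6 ± 0.4 at 12 h. It was at 11.0 ± 0.9 and 11.4 ± 1.5 at 18 h and at 10.3 ± 0.6 and 10.1 ± 0.7 at 24 h, with overlapping groups at these 3 times. *Dlx3* on that scale was at 3.06 ± 0.29 and 2.93 ± 0.24 CPM at 12 h, and at 3.35 ± 0.06 and 2.39 ± 0.10 at 18 h, where the C59 libraries were all lower. Its groups overlapped at the other times. *Sp8* per 100 CPM of markers was lower in every C59 library than in every DMSO library from 6 h on. It was at 4.96 ± 0.29 and 3.15 ± 0.39 at 6 h and at 4.32 ± 0.68 and 1.87 ± 0.23 at 12 h, followed by 3.31 ± 0.14 and 1.70 ± 0.32 at 18 h, and 2.10 ± 0.15 and 1.37 ± 0.20 at 24 h. This scaling was chosen after the values were seen and is given without a test.

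**Figure D3:**
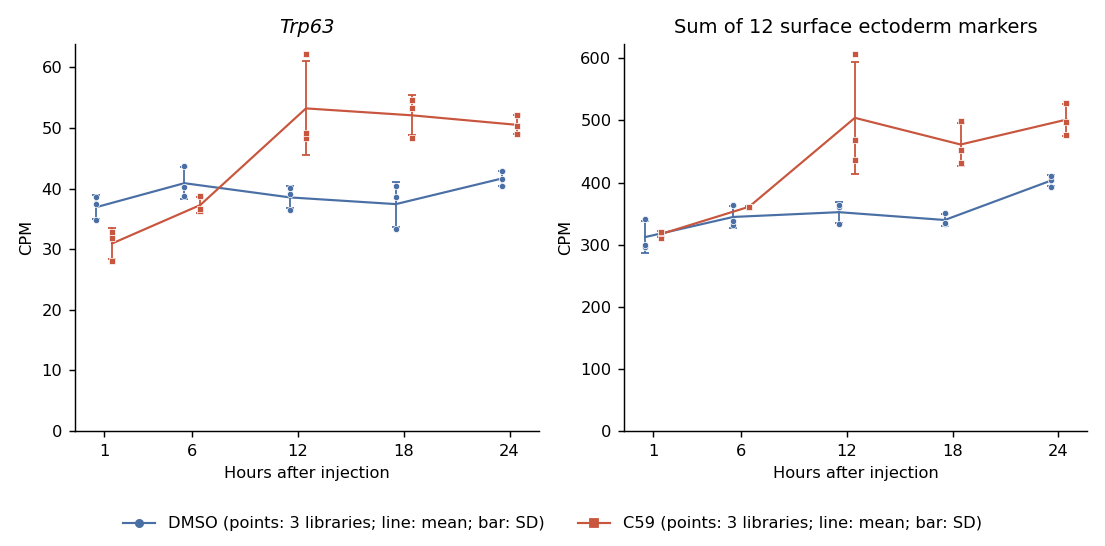
*Trp63* (left) and the sum of 12 surface ectoderm markers (right) in CPM (y axes, linear, from 0) against hours after injection; each point is 1 library, lines join means and bars are SD (n = 3). Both rose above all DMSO libraries in C59 buds at 12 h, 18 h and 24 h, and C59 at 12 h has 1 library at 62.2 and 607 CPM.

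Markers of several other tissues were higher at 12 h as well, and no gene of these lists was lower, when 47.5% of all genes passed. They were 7 of 8 cartilage precursor markers (median log2 difference 1.19), 3 of 4 tested Schwann cell and crest markers (1.06), 3 of 5 macrophage markers (0.72), 4 of 6 endothelium markers (0.35) and 1 of 5 tested erythroid markers (0.36). At 18 h 4 cartilage, 1 Schwann cell and crest and 1 macrophage marker were higher, beside 7.08% of all genes. The rise at 12 h was thus not particular to the ectoderm list. Of 7 muscle precursor markers, 2 were higher and 4 lower at 12 h (median -0.93). Of 8 limb mesenchyme markers, 2 were higher (*Pdgfra* 0.56 and *Tbx5* 0.21) and 6 lower with C59 at 12 h (median -0.88). The lowest was *Msx1* at -3.01, which is also counted in the ridge network list below. At 18 h 4 were lower and none higher (median -0.40). These markers did not move as 1 group, and their values do not give an amount of mesenchyme. The part of tissue proportions in the members' differences was not tested.

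A ratio of 2 members within a library does not depend on library scaling. In this way 6 pairs were compared over 6 h and 12 h and over 18 h and 24 h (exact two-sided permutation within each time, 400 arrangements, smallest p 0.005, adjusted over 12 tests). The 6 pairs were picked with earlier results of these data known. Other pairs of members were not compared, and the adjustment covers the picked ones only. *Sp8* relative to *Trp63* was 0.426, 0.451 and 0.380 in DMSO and 0.348, 0.269 and 0.298 in C59 at 6 h (ratio of CPM). At 12 h it was 0.384, 0.345 and 0.455 against 0.175, 0.197 and 0.158. All C59 libraries were lower at both times, and the mean log2 difference was -0.81 ± 0.10 (permutation p = 0.005, adjusted p = 0.015). It was -0.81 ± 0.08 over 18 h and 24 h too (adjusted p = 0.015). *Dlx5* relative to *Trp63* differed by -0.57 ± 0.21 over 6 h and 12 h (permutation, adjusted p = 0.036) and by -0.68 ± 0.07 over 18 h and 24 h (adjusted p = 0.015). *Dlx5* alone passed the edgeR test at only 6 h and 18 h. At 12 h and 24 h it differed by -0.14 and -0.13, while *Trp63* differed by 0.47 and 0.28, so that the ratio there moved more through *Trp63*. The ratio overlapped at 12 h, with 0.313, 0.386 and 0.321 in DMSO and 0.347, 0.209 and 0.142 in C59. *Sp9* relative to *Sp8* was 0.428, 0.406 and 0.314 in DMSO and 0.253, 0.196 and 0.297 in C59 at 18 h. At 24 h it was 0.601, 0.706 and 0.975 against 0.411, 0.289 and 0.4496. The SP genes thus differed in size of response late (-0.80 ± 0.18, permutation, adjusted p = 0.015), while over 6 h and 12 h their difference was -0.07 ± 0.22 (adjusted p = 0.798). *Dlx2* relative to its neighbour *Dlx1* was lower by -0.41 ± 0.13 over 18 h and 24 h (permutation, adjusted p = 0.04) and by -0.08 ± 0.10 over 6 h and 12 h (adjusted p = 0.607). The late *Dlx2* call and the early *Dlx5* call were lost without any 1 of 9 and any 1 of 7 of the 12 libraries, with adjusted p of up to 0.07 and 0.1. The exceptions were replicate 1 of DMSO 18 h, C59 18 h and DMSO 24 h for *Dlx2*, and C59 6 h replicates 1 and 2 and all C59 12 h replicates for *Dlx5*.

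**Figure D4:**
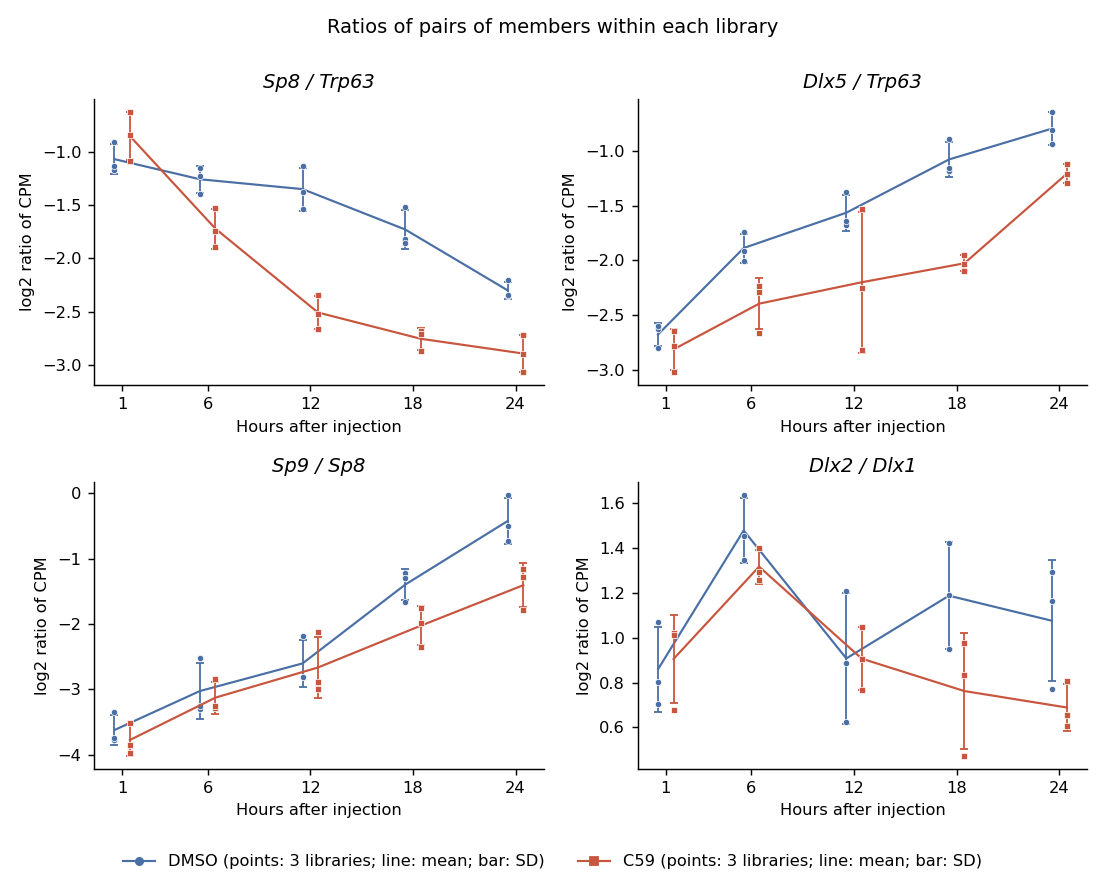
Log2 ratio of CPM of 4 pairs of members within each library (y axes) against hours after injection; each point is 1 library, lines join means and bars are SD (n = 3). *Sp8* relative to *Trp63* is lower in all C59 libraries from 6 h on, and *Sp9* relative to *Sp8* separates only at 18 h and 24 h.

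The wider ridge network was a list of 28 genes, most of them of FGF, BMP and WNT signalling and of dorsoventral patterning. It also held *Jag2*, *Cd44*, *Flrt3*, *Gja1* and *Rarg*, and it shares *Sp5* and *Msx1* with lists above. With C59, 1 gene was higher and 3 were lower at 1 h, beside 2.75% of all genes (edgeR). At 6 h 1 was higher and 13 lower (19.6% of all genes), and at 12 h 4 higher and 14 lower of 27 tested (47.5%). Later there were 2 higher and 6 lower at 18 h (7.08%) and 4 higher and 3 lower of 27 tested at 24 h (6.44%). *Fgf8*, the ridge signal, had 36.4, 32.5 and 33.5 CPM in DMSO and 10.9, 11.2 and 11.9 CPM in C59 at 6 h (-1.59 ± 0.08, adjusted p = 1.7e-08). At 12 h the same groups had 23.5, 19.4 and 24.6 and 2.89, 1.55 and 3.13 CPM (-3.17 ± 0.20). At 24 h it had 6.88 to 12.6 CPM in C59 and 6.64 to 7.85 CPM in DMSO (0.49 ± 0.19, adjusted p = 0.141). Each member's difference from DMSO at 12 h was thus smaller in size than that of *Fgf8*. *Fgf4*, the other ridge FGF, was lower at 6 h (-3.41 ± 0.52, adjusted p = 0.000429). *Bmp4* and *Msx2* were lower at 6 h (-1.03 ± 0.06 and -0.73 ± 0.11) and 12 h (-1.25 ± 0.08 and -0.44 ± 0.11). The dorsal and ventral ectoderm genes *Wnt7a* and *En1* did not pass against DMSO at any time, with values of -0.14 to 0.18 and -0.37 to 0.34.

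As a description of likeness, each member's 10 group means of log2 CPM were correlated with those of 12542 genes of at least 1 CPM. Closest to *Sp8* were *Stk4*, *Hnrnpm* and *Dhx38* (Pearson r = 0.98 each), to *Sp9* *Atp6v1g3*, *Sim1* and *Phldb2* (0.96, 0.96 and 0.95), and to *Dlx5* *Sostdc1*, *Lum* and *Fst* (0.99, 0.98 and 0.98). *Trp63* was nearest to *Psd*, *Wnt3* and *Sdf2* (0.97, 0.97 and 0.96), *Wnt3* being a WNT ligand gene of the limb ectoderm. *Dlx2* was nearest to *Neil3*, *Rab6a* and *Gpbp1* (0.97, 0.97 and 0.96) and *Dlx3* to *Rnf11*, *Cd9* and *Nmi* (0.97, 0.95 and 0.95). *Dlx6* was nearest to *B4galt3*, *Tdrd3* and *B230219D22Rik* (0.93, 0.92 and 0.92), and *Dlx1* to *Chmp3*, *Aplf* and *Cfl2* (0.91, 0.88 and 0.87). Among the members themselves the highest was *Dlx5* with *Dlx6* (0.87), followed by *Sp9* with *Dlx5* (0.84), and the lowest was *Sp8* with *Trp63* (-0.77). These 10 points share the time course, and many genes change steadily over it.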

How the data were processed

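RNA of mouse forelimb buds was sequenced as poly(A) libraries, 30 in 10 groups of 3. Per the submitters' processing notes and methods, reads were trimmed (cutadapt 1.16) and aligned to mm10 (STAR 2.7.0e), and the authors deposited a table of whole-number read counts per gene and a table of FPKM values (Cufflinks 2.2.1). The methods credit the counts to STAR without a strand setting, and FPKM to an unstranded run. The 9 members and all gene lists were chosen with earlier results of these data known. Genes were matched to GENCODE M21, and protein-coding autosomal genes were tested with edgeR 4.0.16 (R 4.3.3; TMM scaling, filterByExpr, quasi-likelihood F test, Benjamini-Hochberg over all genes tested, threshold 0.05), each time on its own 6 libraries and each change of effect on 12. CPM are TMM-scaled over 30 libraries. FPKM were tested with limma 3.58.1 (trend) on log2(FPKM + 0.1) for genes of a mean of at least 0.1, the scale used for *Sp6*. Fold changes on that scale understate the change of low genes. Alternatives included DESeq2 1.42.0, other filters and a block for the replicate number. The edgeR and permutation steps were tested on simulated data. All 9 members were named, with list counts and ends, *Axin2*, *Fgf8*, *Fgf4*, *En1*, *Msx2*, *Wnt7a* and *Bmp4*, and the 3 most similar genes. Replicates are separate embryos. The methods state, for embryo collection in general, that the embryos of a condition and time came from 3 or more litters, and the litter of each library is not given in the sources used here. No column of the tables was left unmapped.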

Additional observations from a re-analysis of the deposited data

Results flagged for a closer look

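Differences of the C59 effect between consecutive times were tested with an interaction term (edgeR, 12 libraries), and 4 passed with adjustment over all genes. At each of the 4 changes 1 of 8 tested members passed. Over all genes 13%, 18.1%, 8.49% and 6.96% passed in order, and 1 call among 8 members is not distinct from these shares. The differences that passed concern *Sp8* from 1 h to 6 h (-0.55 ± 0.13, adjusted p = 0.011), *Trp63* from 6 h to 12 h (0.60 ± 0.12, adjusted p = 0.00249), and *Dlx2* from 12 h to 18 h (-0.82 ± 0.18, adjusted p = 0.0106) and from 18 h to 24 h (0.75 ± 0.21, adjusted p = 0.0457). The last rests on the same 18 h libraries as the one before it, so that these values of *Dlx2* are not independent of each other. Groups of 3 libraries are too small for the test for single outlying samples.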

How the results depend on the processing

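For most settings in this section, those without 1 library included, the share over all genes is not given. A shift of the member counts therefore cannot be told apart from a general shift in calls. Under the alternatives, the number of members past the threshold moved by more than 1.5 times in these cases. With a log2 difference beyond 1 required as well it was 0 at 6 h and 12 h, 1 at 18 h and 24 h, 0 for each change of effect, and 3 for DMSO at 24 h against 1 h. Without a filter on low counts 2 members passed at 1 h (*Dlx6* and *Trp63*). At 24 h 1 passed with all 30 libraries in the fit and with limma on log2(FPKM + 1) or log2(FPKM + 0.1). For the change from 18 h to 24 h 0 passed with all genes of the table, and for that from 1 h to 6 h 0 passed with limma, an alternative added after the data were seen.

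The replicate numbers did not pair the samples (correlations of same-numbered libraries of -0.25 to 0.15). With the replicate block 2 members passed at 18 h (*Dlx5* and *Trp63* no longer did), 0 changed from 18 h to 24 h, and 0 pairs passed in either window, where sign flips over 6 pairs can give no p below 0.03125.

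With 1 library left out the counts ranged over 0 to 0 at 1 h, 2 to 2 at 6 h, 2 to 4 at 12 h, 1 to 5 at 18 h and 1 to 2 at 24 h, over 1 to 1, 1 to 2, 1 to 1 and 0 to 1 for the 4 changes of effect, over 5 to 7 for DMSO and 6 to 6 for C59 at 24 h against 1 h, and over 1 to 2 and 3 to 4 for the pairs. No value that passed in the main fit changed its sign. Values near 0 in the main fit that did, none of which passed there, were *Dlx2* at 12 h (0.0047 and 0.0046 with limma, -0.15 to 0.0098 without 1 library) and in DMSO at 24 h against 1 h (0.019 with limma, -0.17 to 0.011). Without 1 library, so did *Sp8* at 1 h (-0.082 to 0.029), *Dlx1* (-0.24 to 0.093), *Dlx5* (-0.44 to 0.045) and *Dlx6* (-0.25 to 0.087) at 12 h, and *Dlx2* in C59 at 24 h against 1 h (-0.13 to 0.13). The *Dlx5* value of -0.44, without C59 12 h replicate 1, passed (edgeR, adjusted p = 0.0331). The early ratios of *Sp9* to *Sp8* and of *Dlx2* to *Dlx1* were 0.055 and 0.019 from FPKM, and the first -0.21 to 0.050 without 1 library. The ratio of *Sp6* to *Sp8* from counts, which rests on a median of 2 *Sp6* counts, was -0.35 to 0.49 early and -0.93 to 0.36 late without 1 library, and 0.34 late with 2 counts added. The causes were not tested. Depth limits *Dlx6* and *Sp9*, the members with the fewest counts after *Sp6*.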
